A study of Homo sapiens with 7 samples.

Results

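The genes described here are 9 genes of the unfolded protein response, XBP1, ATF4, ATF6, DDIT3, HSPA5, ERN1, EIF2AK3, PDIA4 and CALR, of the 26175 genes in the RNA-seq table. They were listed by name as genes of this pathway, with earlier results of these data known, and the rule that collects their values uses no measured level. Each was given its RNA-seq level, the gene TSS called inside its locus widened by 1000 nt on the strand of the gene, and the antisense TSSs that carry the identifier of that gene TSS. All 9 genes had exactly 1 such gene TSS, of 10391 in the series, so that every member had a value in both assays. The data come from T-47D cells, a human luminal breast cancer line, named T47D/A1-2 in the methods: a derivative that overexpresses rat glucocorticoid receptor and carries an integrated MMTV luciferase reporter. Every sample shares the same culture: medium with 10% serum, followed by a minimum of 24 hours in medium with 5% serum stripped with charcoal dextran. Neither the labels nor the methods name an agent that stresses the endoplasmic reticulum (ER), so the values describe the response genes in growing cells and there is no treated group. Start-seq, which sequences short capped RNA from newly initiated RNA polymerase II, gave the TSS calls from replicate 1, and RNA-seq gave 1 FPKM value (fragments scaled to transcript length and to the mapped fragments of the library) per gene over 3 merged replicates.

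The unfolded protein response adjusts the folding capacity of the ER to the load of newly made protein. Its sensors sit in the ER membrane, where ERN1 (IRE1) cuts the XBP1 mRNA so that it is spliced into the form that encodes the active factor, EIF2AK3 (PERK) phosphorylates the translation factor eIF2 alpha, which slows translation in general and favours that of ATF4, and ATF6 is cut in the Golgi to release a transcription factor. XBP1, ATF4 and ATF6 then switch on chaperones, folding enzymes, degradation factors and, under lasting stress, DDIT3 (CHOP). Much of this control acts on splicing, translation or the protein, and gene-level FPKM reads none of those steps, nor does it tell the spliced from the unspliced XBP1 mRNA.

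Because ATF6 and the general factor NF-Y bind a bipartite ER stress response element (ERSE), the sequences upstream of the gene TSSs were read for it first. ERSE was searched as CCAAT, any 9 nt, then CCACG, on both strands of the 300 nt upstream of each called gene TSS. XBP1, HSPA5 and CALR held an exact match. The matches are shown because the element is rare among the promoters of the series, with both parts in capitals, 12 nt on each side, and each sequence read 5′ to 3′ on the strand of the gene (hg19, chr22:29196579-29196621 minus, chr9:128003658-128003700 minus and chr19:13049186-13049228 plus).
XBP1: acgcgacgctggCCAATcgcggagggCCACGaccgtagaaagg
HSPA5: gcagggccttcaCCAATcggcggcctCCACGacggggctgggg
CALR: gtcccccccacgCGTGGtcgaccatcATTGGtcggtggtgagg

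The XBP1 match lay from -82 to -64 and that of HSPA5 from -66 to -48, both on the strand of the gene. The CALR match was farther upstream, from -225 to -207, and on the opposite strand, so that it reads CGTGG first and ATTGG last. Over all gene TSSs, 15 of 10391 (0.144%, exact 95% interval 0.0808% to 0.238%) held an exact ERSE in the same window, against 3 of the 9 genes described here. The same members and the same share were found with a window of 500 nt. The interval covers the counting of promoters only, and no test was made on so few genes. Both the element and the 9 genes were chosen for their known place in this response. The difference between these shares is therefore no independent finding.

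The 12 other gene TSSs with an exact match, named after their matches were seen, included those of further ER genes. Among them were the chaperones HSP90B1, which had 2 matches, and CANX, the disulfide isomerase PDIA6 and the ER oxidase ERO1B. FICD, which modifies HSPA5 protein, ALG12, a mannosyltransferase of N-glycan synthesis, SLC33A1, an ER acetyl-CoA transporter, and SERP1, an ER stress-associated membrane protein, were also found. The SERP1 match is shared with the divergent gene EIF2A, whose TSS lies on the other side of it. The remaining 3 were TMEM120A, ZNF17 and the potassium channel gene KCNJ6. The RNA-seq levels of the 15 genes ran from 0 for KCNJ6 to 526 FPKM for CALR, with a median of 52.1 FPKM.

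With 1 mismatch allowed in either part, DDIT3 and PDIA4 joined the 3 genes above, which made 5 of 9, beside 1.94% of all gene TSSs. DDIT3 had a pair of such matches that overlap, on opposite strands, between -103 and -75 (chr12:57914369-57914397, minus strand). The intact CCAAT of each is in capitals, as CCAAT for the first and ATTGG for the second.
DDIT3: CCAATgccggcgtgccactttctgATTGG
Counted from 1 at the first base of CCAAT, the first DDIT3 match differs by G19T and the second by C15G. In PDIA4 the match lay between -256 and -238 on the opposite strand and differed by G19T as well. Neither ATF4 nor the sensors ATF6, ERN1 and EIF2AK3 had a match at this stringency.

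CCAAT boxes on their own were the more common feature. Of the 9 genes, 8 had at least 1 CCAAT on either strand of the 300 nt, ATF4 being the exception, beside 36.8% of all gene TSSs. The count was 9 of 9 with a window of 500 nt. From -250 to +50 around the annotated start it was 7 of 9, and there ATF6 had none either. At least 4 were present in HSPA5 (5), EIF2AK3 (5), PDIA4 (4) and CALR (4), beside 1.97% of all gene TSSs with 4 or more, a number chosen after the counts were seen. CCACG was present in 6 of 9, against 51.4%, and every exact ERSE holds 1 of each, so these counts overlap with it. HSPA5, the ER chaperone also known as BiP, and the sensor EIF2AK3 are shown for comparison because both have 5 CCAAT boxes while only HSPA5 has a CCACG (chr9:128003663-128003882 minus, from -260 to -41, and chr2:88927024-88927264 minus, from -282 to -42). Capitals mark every CCAAT or ATTGG and, in HSPA5, the CCACG.
HSPA5 promoter: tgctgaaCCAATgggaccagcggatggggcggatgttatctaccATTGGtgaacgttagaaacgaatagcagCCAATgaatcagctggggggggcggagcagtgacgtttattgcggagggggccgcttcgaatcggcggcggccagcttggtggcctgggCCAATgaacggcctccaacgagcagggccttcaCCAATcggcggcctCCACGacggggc
EIF2AK3 promoter: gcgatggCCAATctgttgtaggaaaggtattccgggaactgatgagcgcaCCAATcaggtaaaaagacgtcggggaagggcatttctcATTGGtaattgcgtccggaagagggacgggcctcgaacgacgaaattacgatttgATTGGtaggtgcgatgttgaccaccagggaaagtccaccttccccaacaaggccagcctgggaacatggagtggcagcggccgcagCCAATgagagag

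Other elements of the response were rare in the same windows. ERSE-II (ATTGG, any 1 nt, CCACG), the UPRE core bound by XBP1 (TGACGTG) and CARE, the element read by ATF4 with its C/EBP partners (TGATG, any 1 nt, AA), were found in 0 of 9 genes, and over all gene TSSs in 0.0962%, 2.35% and 1.55%. A search of 500 nt found CARE in DDIT3, from -309 to -302, just outside the shorter window (chr12:57914590-57914609, minus strand, with the match in capitals on the opposite strand), beside 3.25% of all gene TSSs.
DDIT3 CARE: caaacaTTGCATCAtccccg
HSPA5 alone had the cyclic AMP response element core TGACGT, at -158 to -153, which 11.3% of all gene TSSs had. GC boxes (GGGCGG) were present in 8 of 9, beside 72.8%, from 7 in ERN1 to 0 in EIF2AK3. A sequence match is a description of these letters and not a measured binding site.

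**Figure D1:**
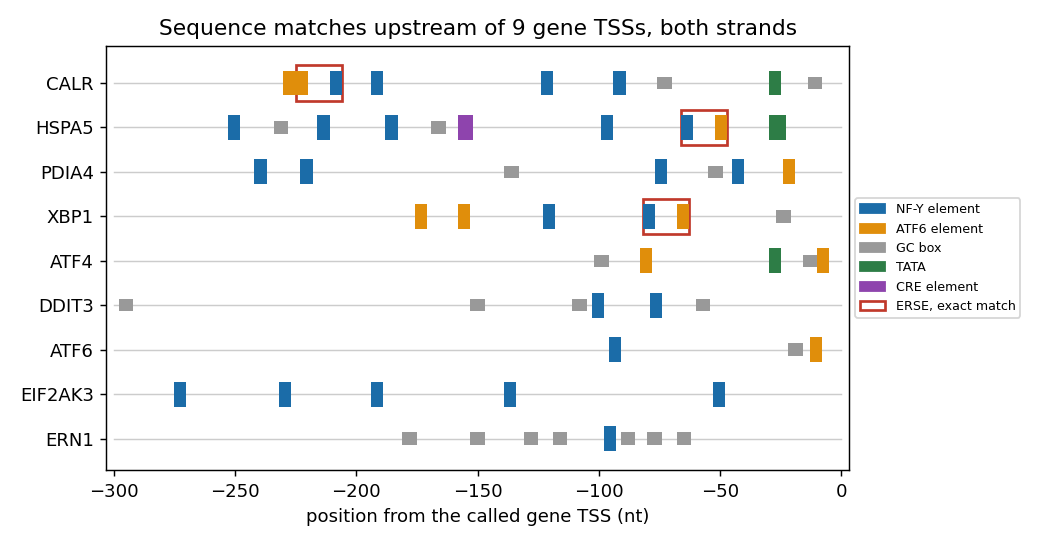
Matches in the 300 nt upstream of the called gene TSS of each of the 9 genes, on either strand, with the position from the gene TSS in nt on the x axis. Open red boxes mark exact ERSE matches, present in XBP1, HSPA5 and CALR, and filled boxes mark NF-Y elements (CCAAT), ATF6 elements (CCACG), GC boxes, TATA boxes and the CRE core. The NF-Y elements number 5 in HSPA5 and EIF2AK3 and 0 in ATF4.

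A TATA box, read as TATA followed by A or T and starting between -35 and -24 on the strand of the gene, was present in ATF4, HSPA5 and CALR, or 3 of 9, beside 3.0% of all gene TSSs. In all 3 it began at -30. The 30 nt from -38 to -9 are shown with the box in capitals (chr22:39916529-39916558 plus, chr9:128003631-128003660 minus and chr19:13049385-13049414 plus).
ATF4: acgaagtcTATAAagggccggcgggcggcc
HSPA5: ggggagggTATATAAgccgagtaggcgacg
CALR: cgggtgggTATAAaagtgcaaggcgggcgg
The 3 called TSSs also coincided with the start of the canonical transcript in the annotation, at a distance of 0 nt each. HSPA5 and CALR thus carried both an exact ERSE and a TATA box, XBP1 only the ERSE and ATF4 only the TATA box.

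The RNA-seq levels of the 9 genes ran from 2.12 to 526 FPKM, with a median of 63.9 FPKM. Since the authors merged the replicates, the table has a single value per gene and no spread between replicates can be given. The order of the levels is therefore a description, and it cannot be said which neighbours in it differ. All 9 genes had at least 1 FPKM, as did 46.9% of the genes in the table, and 42.6% of the table was at or above the level of ERN1, the lowest of the 9. Against the median of 16.4 FPKM over the 9436 genes with a called gene TSS, 7 of 9 were higher, and 5 were in the top 10% of all genes.

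The ER chaperones and folding enzymes were high. CALR (calreticulin), a calcium-binding chaperone for glycoproteins, had 526 FPKM, more than 99.8% of all genes and 44th in rank. HSPA5, which holds unfolded chains and also keeps the sensors silent, had 200.0 FPKM, more than 98.8% of genes. PDIA4 (ERp72), a protein disulfide isomerase, had 63.9 FPKM, more than 93.7% of genes. The level of CALR was 2.63 times that of HSPA5, which was 3.13 times that of PDIA4. FPKM is divided by transcript length, so that these ratios compare levels per length.

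The sensors had the lowest median of the 3 roles, 7.86 FPKM, although ATF6 was above the factor DDIT3 (19.1 FPKM). ATF6 had 23.3 FPKM, EIF2AK3 7.86 FPKM and ERN1 2.12 FPKM. They were higher than 82.9%, 69.0% and 57.4% of all genes, but among genes with a called gene TSS ERN1 was higher than only 11.4%. ATF6 was thus 2.96 times as high as EIF2AK3 and 11.0 times as high as ERN1. The highest sensor, ATF6, was below the lowest of the chaperones, PDIA4.

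The transcription factors downstream of the sensors covered a wide range. XBP1 had 461 FPKM, close to CALR, which was 1.14 times as high. ATF4 had 133 FPKM, and DDIT3, a factor that promotes cell death when stress persists, had 19.1 FPKM. XBP1 was therefore 3.46 times as high as ATF4 and 24.2 times as high as DDIT3. XBP1 and ATF4 mRNA also exceeded that of the sensor acting on each factor, by 218 times for XBP1 over ERN1 and 17 times for ATF4 over EIF2AK3.

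Some of these values need a limit stated beside them. XBP1 is also a gene of luminal breast epithelium, and its 461 FPKM stood beside 360.4 FPKM for GATA3, 113 FPKM for FOXA1 and 44.1 FPKM for ESR1. The part of either role in the XBP1 level was not tested. The annotation lists 4 ATF4 pseudogenes and 1 each for XBP1 and HSPA5, and reads shared with such copies could be split between them. DDIT3 lies in a locus that the authors' table shares with MARS on the opposite strand (98.3 FPKM), and the libraries are strand-specific, but whether counting used the strand is not given in the sources used here. Of the luminal markers other than XBP1, 9 of 9 were above 1 FPKM, from 1.90 for TFF1 to 1142 for KRT8. Of the basal markers 0 of 3 were, with the keratins KRT5 and KRT14 listed at 0 and TP63 at 0.517 FPKM. Of the mesenchymal markers 1 of 3 was above 1 FPKM, COL1A1 at 8.82, and of the endothelial markers 0 of 3.

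**Figure D2:**
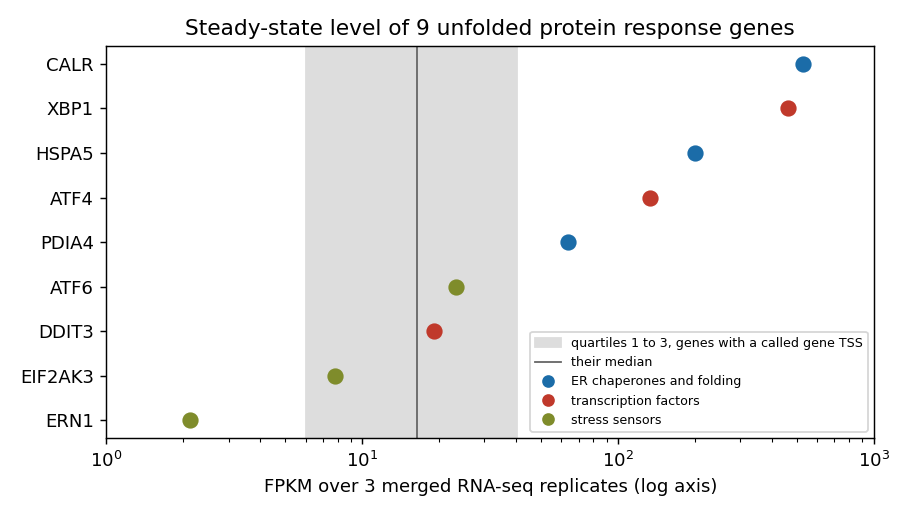
RNA-seq level of each of the 9 genes in FPKM on a log axis, 1 value per gene over 3 merged replicates, so no error bars can be drawn. The grey band and line give the quartiles (6.02 and 40.1 FPKM) and median (16.4 FPKM) of the genes with a called gene TSS. Chaperones lie to the right of the band, ATF6, DDIT3 and EIF2AK3 within it, and ERN1 to its left.

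Transcription initiation was called at every one of the 9 genes. Among the genes of at least 1 FPKM whose symbols are in the annotation, 78.0% had a called gene TSS. The calls of 7 genes were within 5 nt of the start of the canonical transcript in the GENCODE annotation. These were ATF4, HSPA5, EIF2AK3 and CALR at the start itself, and PDIA4, DDIT3 and ERN1 at 2, 3 and 5 nt downstream. Over all gene TSSs, the nearest start of any annotated transcript on the same strand lay at a median of 10 nt (quartiles 1 and 51 nt). That is a looser measure than the distance to the canonical start. The authors chose, of 2 candidate positions per gene, the one nearer to the RefSeq start, so closeness to annotated starts is in part built into the calls. The closeness also depends on the annotation: the locus of PDIA4 in the authors' table begins at 148725782 on the minus strand, and its call was at 148725595. XBP1 initiated 30 nt downstream of its canonical start. ATF6 initiated 213 nt downstream, at position 161736323 on the plus strand of chromosome 1, which is 91 nt past the end of the canonical exon 1 and so in intron 1 of that transcript, and 18 nt from the nearest annotated start of any transcript. The gene TSS positions of the others were 29196527 (XBP1, minus strand) and 39916567 (ATF4, plus) on chromosome 22, 57914294 (DDIT3, minus) on chromosome 12, 128003622 (HSPA5, minus) on chromosome 9, 62207499 (ERN1, minus) on chromosome 17, 88926982 (EIF2AK3, minus) on chromosome 2, 148725595 (PDIA4, minus) on chromosome 7 and 13049423 (CALR, plus) on chromosome 19. For 7 of 9 genes no other gene TSS was called within 5000 nt, and 77.5% of all gene TSSs were alone in that sense. The exceptions were DDIT3, with another at 2315 nt, and CALR, with another at 4889 nt.

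An upstream antisense TSS (uaTSS), called on the opposite strand within 1000 nt upstream, was present at all 9 genes, beside 53.1% of all gene TSSs. Among gene TSSs whose gene was at least as high as ERN1, the share was 55.5%. A downstream antisense TSS (daTSS), called on the opposite strand within 2000 nt downstream, was present only at EIF2AK3, or 1 of 9, beside 28.4% of all gene TSSs. The other 8 genes thus had a uaTSS and no daTSS, a class that held 35.6% of all gene TSSs. The authors called a position from 5 reads upward, and the calls carry no read counts, so the absence of a daTSS call does not show that no antisense RNA starts there. They also removed daTSSs that had an annotated start of their own strand closer than 1000 nt, or enough sense initiation nearby to point to an uncalled gene TSS, and these filters bear on both the 1 of 9 and the 28.4%. All calls come from 1 library.

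The uaTSSs of these genes tended to lie far out. Their distances from the gene TSS were 201 nt for ERN1, 335 nt for ATF4, 336 nt for HSPA5, 367 nt for ATF6, 428 nt for EIF2AK3, 435 nt for XBP1, DDIT3 and PDIA4, and 638 nt for CALR. The median was 428 nt, against 200 nt over all 5519 uaTSSs (quartiles 127 and 329.5 nt). In 8 of 9 genes the distance was above the third quartile, which 25.0% of all uaTSSs exceed, and only ERN1 was near the middle of the distribution, with 50.2% of all uaTSSs shorter. ATF4 and HSPA5 were only just above the third quartile. Distances count from the called gene TSS, which at ATF6 lay 213 nt downstream of the canonical start, so its uaTSS was closer to that start. At CALR 94.3% of all uaTSSs were shorter. This comparison was chosen after the distances were seen and was not tested.

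**Figure D3:**
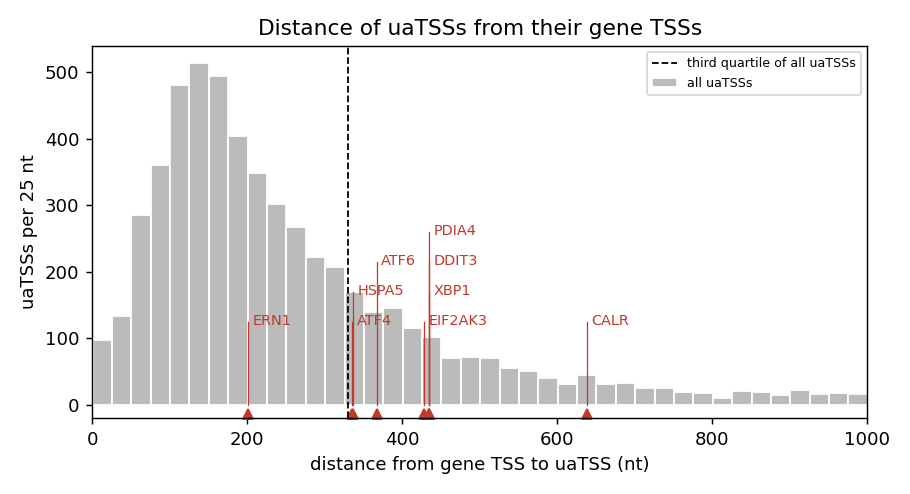
Histogram of the distance between gene TSS and uaTSS over all 5519 uaTSSs, in bins of 25 nt, with red triangles and lines at the 9 genes described here. ERN1 lies at 201 nt, left of the third quartile (dashed line, 329.5 nt), and the other 8 lie to its right, up to CALR at 638 nt.

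The distance of 435 nt was shared to the nucleotide by XBP1, DDIT3 and PDIA4, which lie on 3 chromosomes, and no other gene TSS of the series had a uaTSS at 435 nt. In the series 102 uaTSSs lay from 426 to 450 nt. The shared value counts from the called gene TSSs, which lay 30, 3 and 2 nt downstream of the canonical starts of XBP1, DDIT3 and PDIA4. From those starts the distances would differ. The shared distance was noticed after the distances were seen and was not tested. The 21 nt centered on these uaTSSs are shown in the antisense direction, with the base before the start and the start base in capitals (chr22:29196952-29196972, chr12:57914719-57914739 and chr7:148726020-148726040, all plus strand).
XBP1 uaTSS: gagatagagCGcagttgggcc
DDIT3 uaTSS: cccaacggcTAtcagccttgg
PDIA4 uaTSS: tcggctcagCAtcctgcggcc
Each has a pyrimidine followed by a purine there, the usual dinucleotide of initiation.

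Several of the uaTSSs lay beside the start of an annotated divergent RNA. An annotated transcript began on the same strand within 50 nt of the uaTSS at 5 of 9 genes, beside 16.6% of all uaTSSs. These were EIF2AK3-DT at 9 nt, HSPA5-DT at 16 nt, ATF6-DT at 39 nt and an unnamed lncRNA (ENSG00000289957) at 28 nt from the ERN1 uaTSS. The fifth was the protein-coding gene MBD6, a transcript of which starts 19 nt from the DDIT3 uaTSS, so that initiation of MBD6 and upstream antisense initiation of DDIT3 cannot be told apart there. At XBP1 the uaTSS fell in exon 1 of a lncRNA (ENSG00000226471), 265 nt from its nearest start. At CALR, PDIA4 and ATF4 the nearest annotated start on the strand of the uaTSS was 3934, 4119 and 11866 nt away. The ATF4 uaTSS fell in exon 2 of an annotated ATF4 transcript, and the ERN1 uaTSS in exon 1 of an ERN1 transcript. Those of DDIT3 and EIF2AK3 also lay inside annotated transcripts of their own genes. At these genes the uaTSS is upstream of the called gene TSS but not of every annotated start.

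EIF2AK3 was the only one of the 9 with both antisense calls, a class of 17.5% of all gene TSSs. Its daTSS, at position 88926483, lay 2 nt past the end of the canonical exon 1, which extends 497 nt downstream of the gene TSS, and thus in intron 1. Of all 2956 daTSSs, whose median distance was 507 nt, 49.3% lay closer to their gene TSS. In the annotation used here, which is not the one the authors filtered on, the nearest start on the strand of this daTSS is that of EIF2AK3-DT, 574 nt away. The 21 nt around its 3 TSSs follow, each in its own direction of transcription, with the same pair of bases in capitals (chr2:88926972-88926992 minus, chr2:88927400-88927420 plus and chr2:88926473-88926493 plus).
EIF2AK3 gene TSS: tgtccgagaTAggctgtcact
EIF2AK3 uaTSS: tgactgtgaAGaggactgtcc
EIF2AK3 daTSS: gcagcccctCAcctgccgcgc
The gene TSS and the daTSS had a pyrimidine followed by a purine, and the uaTSS did not.

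**Figure D4:**
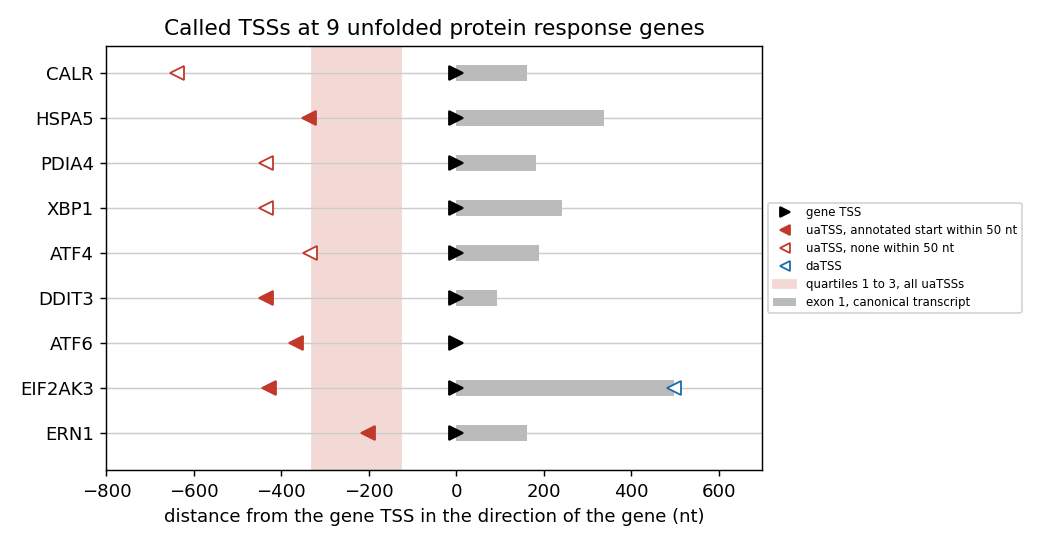
Called TSSs at the 9 genes, with the distance from the gene TSS in nt on the x axis, negative upstream and positive downstream of the gene TSS (black). Red triangles are uaTSSs, filled where an annotated transcript starts within 50 nt on their strand, and the blue triangle is the daTSS of EIF2AK3. The pink band spans the quartiles of all uaTSS distances (127 to 329.5 nt), and grey bars are the part of canonical exon 1 downstream of the gene TSS, which is absent for ATF6.

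The pyrimidine and purine pair marked 7 of the 9 gene TSSs, all but ATF4 and ERN1, beside 66.1% of all gene TSSs. It also marked 7 of the 9 uaTSSs, all but ATF6 and EIF2AK3, beside 64.7%. DDIT3 alone had a pattern like the initiator element at its gene TSS (CA across the start, then any base, then A or T), which 18.8% of all gene TSSs had, and 0 of 9 uaTSSs had it, against 18.6% of all.

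GC content in the 100 nt centered on the gene TSS had a median of 61% over the 9 genes and of 68% over all gene TSSs. It was 79% at XBP1, 71% at ERN1, 70% at PDIA4, 66% at CALR, 61% at each of ATF6, HSPA5 and EIF2AK3, 59% at ATF4 and 52% at DDIT3. XBP1 was higher than 89.9% of all gene TSSs and DDIT3 higher than only 4.99%. The ratio of observed to expected CpG dinucleotides was taken over the 1000 nt centered on the gene TSS. Its median was 0.870 over the 9 genes and 0.782 over all gene TSSs. Within the 9 it was lowest at ATF6 (0.626) and highest at ERN1 (0.909). The ratio at ERN1 was above that of 85.4% of all gene TSSs. XBP1 (0.894, above 82.0%) and EIF2AK3 (0.886, above 80.0%) were close to it. At the uaTSSs, GC content ran from 41% at ATF6 to 72% at ERN1.

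The wider pathway was described by 4 lists of 73 genes in all, each found in the table. Of these, 67 were above 1 FPKM, and 50 were above the median of the genes with a called gene TSS. Over the whole table, 46.9% of genes had at least 1 FPKM, and 5688 of 26175 were above that median. Within the ER chaperones and folding enzymes, 20 of 20 had at least 1 FPKM, with a median of 70.0 FPKM. The highest were P4HB, a disulfide isomerase, at 432 FPKM, PPIB (cyclophilin B) at 283 FPKM and HSP90B1 (GRP94) at 245 FPKM. The lowest were DNAJB9, a cochaperone of HSPA5, at 9.66 FPKM and ERO1B at 2.71 FPKM. A gene TSS was called at 18 of them, but not at PDIA3 (96.0 FPKM) or DNAJC10 (18.1 FPKM). Of the 18, 13 had a uaTSS (72.2%) and 6 a daTSS (33.3%), where 55.1% and 29.4% of all table genes with a called gene TSS had them.

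Of the genes for ER-associated degradation and glycoprotein quality control, 19 of 20 were above 1 FPKM, with a median of 34.1 FPKM. OS9, a lectin that hands over misfolded glycoproteins, had 177.5 FPKM, the ATPase VCP 150 FPKM and AUP1 75.2 FPKM. The lowest of the list were UGGT2 at 9.28 FPKM, still more than 71.0% of all genes, and DERL3, listed at 0. UGGT1, the folding sensor for glycoproteins, had 14.9 FPKM without a called gene TSS. Of the 18 genes of this list with a gene TSS, 7 had a uaTSS (38.9%) and 7 a daTSS (38.9%).

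In the PERK and ATF4 branch 18 of 20 were above 1 FPKM, and the median of 16.2 FPKM was the lowest of the 4 lists. NUPR1, a stress-induced chromatin protein, led with 249.5 FPKM, followed by the eIF2 alpha kinase EIF2AK1 with 133 FPKM and the amino acid transporter subunit SLC3A2 with 104 FPKM. CHAC1, which breaks down glutathione, had 0.952 FPKM and the cystine transporter SLC7A11 0.365 FPKM. A gene TSS was called at 20 of 20, including these low genes, and 12 of them had a uaTSS (60.0%) and 6 a daTSS (30.0%).

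Among the other sensors, membrane-bound factors and processing enzymes, 10 of 13 were above 1 FPKM, with a median of 39.6 FPKM. TMBIM6 had 640.1 FPKM, the ATF6-related factor CREB3L4 232 FPKM and the protease MBTPS1, which makes the first cut in ATF6, 109.7 FPKM. ERN2, the paralog of ERN1, was at 0.0108 FPKM and CREB3L3 at 0.00540 FPKM. ATF6B, the paralog of ATF6, had 92.6 FPKM, higher than ATF6, without a called gene TSS. Of the 9 genes of this list with a gene TSS, 7 had a uaTSS (77.8%) and 1 a daTSS (11.1%).

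**Figure D5:**
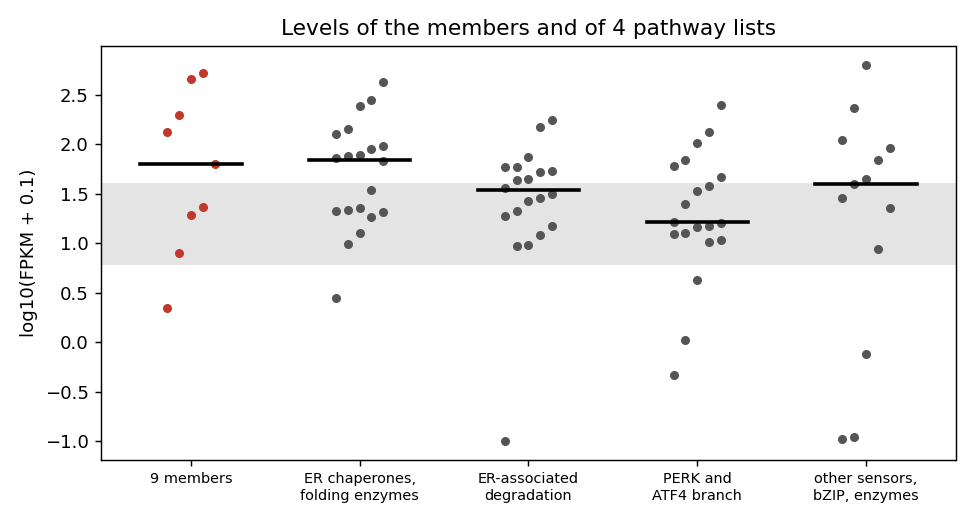
Levels of the 9 genes (red) and of the 4 pathway lists (grey) as log10(FPKM + 0.1), with black bars at the medians and the grey band at the quartiles of genes with a called gene TSS. Medians were 63.9 FPKM for the 9 genes and 70.0, 34.1, 16.2 and 39.6 FPKM for the lists from left to right, and DERL3, listed at 0, is the lowest point.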

How the data were processed

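The sample labels list 2 Start-seq libraries, 3 RNA-seq libraries and 1 each of MNase-seq and FAIRE-seq, all under the same growth condition. The TSS calls analysed come from replicate 1 of Start-seq. The second Start-seq library and both chromatin assays were not analysed here.

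Start-seq reads were quality-filtered, trimmed with Cutadapt 1.2.1 and aligned to hg19 with Bowtie 0.12.8. The authors called gene TSSs in windows around RefSeq starts with a position of at least 5 reads. Their 2 candidates were the position with the most 5′ ends in the window and that in its densest bin, and the one nearer to the RefSeq start was kept. Antisense TSSs were the positions with the most 5′ ends, and daTSSs were then filtered for nearby annotated or uncalled gene TSSs. The deposited score is 0 for every call, so depth is unknown. The deposited FPKM values were estimated by the authors with Cufflinks 2.2.1 from strand-specific libraries aligned with TopHat 2.0.4, de-duplicated, and merged over 3 replicates. It held 0 further columns with values of single samples, and 28 symbols had become dates.

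Here, sequence came from GRCh37, which has the chromosome sequences of hg19, and gene models from GENCODE mapped to GRCh37. For counts of genes with a called gene TSS, a call within 1000 nt of an annotated start on the same strand was assigned to that gene, and 22337 of 26175 table symbols matched the annotation. No test was run, because each gene has 1 merged value and each call comes from 1 library. Shares have exact Clopper-Pearson 95% intervals, which cover counting error only. Levels were compared as FPKM or as percentiles, and log2 values used a pseudocount of 0.1. Motif and percentile functions were tested on simulated sequences. Python 3.11.15, numpy 2.4.6, scipy 1.17.1, pandas 2.3.3, pysam 0.24.0 and matplotlib 3.10.9 were used.

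The 9 genes, the 4 lists and the motifs were chosen with earlier results of these data known. From each list the 3 highest and 2 lowest genes by FPKM and up to 3 genes above 1 FPKM without a called gene TSS were named; others were named after their values were seen, where so stated. Alternatives were other sets of genes for percentiles, other windows, distance limits, FPKM minimums and pseudocounts, joining by position, and mismatches. One further class of cell type markers is not reported here.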

Additional observations from a re-analysis of the deposited data

How the results depend on the processing

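Of 44 alternatives for counts, shares and medians, 28 kept a count within 1.5 times or a value within its interval. Of 27 for the percentiles of single genes, 6 did and 21 moved: over genes with a called gene TSS, ERN1 went from 57.4 to 11.4, EIF2AK3 from 69.0 to 30.6 and DDIT3 from 80.4 to 54.7, and over genes at or above 1 FPKM ERN1 was at 9.22. All 9 genes had a called gene TSS with the locus widened by 0 or 2000 nt, and the latter gave 10 gene TSSs in all. A uaTSS within 500 nt was present at 8 of 9, CALR being the exception. The median percentile of the 9 genes, 93.7 over all genes, was 90.9 over genes above 0, 86.5 over genes at or above 1 FPKM and 85.1 over genes with a called gene TSS. The median log2(FPKM) was 6.02 with a pseudocount of 1. A uaTSS accompanied 47.5% of gene TSSs within 500 nt, 58.5% without another gene TSS within 5000 nt and 55.5% for genes at least as high as the lowest of the 9. A daTSS accompanied 24.1% within 1000 nt and 32.9% without another gene TSS within 5000 nt. ERSE with 1 mismatch was present in 5 of the 9 genes and at 1.94% of gene TSSs, by construction of the looser match, and CARE in 1 gene within 500 nt. GC content over 500 nt had a median of 63.4%. The median FPKM over genes above 0 was 36.5 for the degradation list and 5.48 for all genes, and 7348 genes of the table reached 10 FPKM. No paired analysis was possible because no result comes from a test, and no replicate could be left out because the FPKM values are merged and the calls come from 1 library.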

Other observations

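CARE, the element read by ATF4, was absent from the 300 nt upstream of all 9 genes but present at some genes listed for the PERK and ATF4 branch. Among the 9, DDIT3 had a match just outside that window, from -309 to -302. Within 300 nt, CARE was found at 8 of the 20 genes of that list, all of which had a called gene TSS, beside 1.55% of all gene TSSs. The genes were TRIB3, a pseudokinase induced by ATF4, with 3 matches, DDIT4, ATF3 and SLC7A11 with 2 each, and NUPR1, ASNS, SESN2 and VLDLR with 1 each. Their levels ran from 0.365 FPKM for SLC7A11 to 249.5 FPKM for NUPR1. Exact ERSE matches were found at 4 of the 18 ER chaperones and folding enzymes with a called gene TSS (HSP90B1, CANX, PDIA6 and ERO1B). The other lists had 0, beside 0.144% of all gene TSSs. In the degradation list, with 18 called genes, CARE was found only at HERPUD1. With 1 mismatch ERSE was found at 3 of these 18 and at 7 of the 18 chaperones and folding enzymes. It was found at 0 of 20 in the PERK and ATF4 branch and 1 of 9 in the fourth list, beside 1.94% of all gene TSSs. The lists and motifs were chosen with earlier results of these data known, and no test was run on these counts. CARE and the genes of the PERK and ATF4 branch were both chosen for their known link to ATF4, so that count is no independent finding. The same holds for ERSE and the ER chaperones.

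The median distance of the uaTSSs was 304 nt for the ER chaperones and folding enzymes, 198 nt for the degradation list, 189 nt for the PERK and ATF4 branch and 317 nt for the other sensors, factors and enzymes. Of the 39 list genes with a uaTSS, 12 had it beyond the third quartile of 329.5 nt. A daTSS was called at 20 of the 65 list genes with a gene TSS (30.8%), close to the 29.4% over all table genes with one.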
